A study of Mus musculus with 8 samples.

Results

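The genes described here encode 10 cytokine receptor subunits, chosen by name as the receptors of IL-2, IL-7, IL-12, IL-18, IL-27 and interferon gamma, out of 22549 genes in the expression table. They are Il2ra, Il2rb, Il2rg, Il7r, Il12rb1, Il12rb2, Il27ra, Il18r1, Il18rap and Ifngr1. RNA was sequenced from iNKT cells (invariant natural killer T cells, which recognise lipids on CD1d) in 4 libraries from skin and 4 libraries from spleen. All libraries came from mice carrying 1 EGFP allele at Ccr10 (CCR10+/EGFP), so neither tissue has an unmodified Ccr10 locus. The labels give no age and do not say how many animals or cells went into a library, nor whether the 4 libraries of a tissue are from different animals. P-values here cover library-to-library spread alone, and that spread may be technical.

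Cytokine receptors are assembled from subunits that are often shared. The common gamma chain, encoded by Il2rg, joins the IL-2 receptor beta chain (Il2rb) to signal for IL-2 and IL-15, and joins the IL-7 receptor alpha chain (Il7r) to signal for IL-7. Il2ra encodes the alpha chain, CD25, which raises the affinity for IL-2. IL-12 binds a pair of chains, Il12rb1 and Il12rb2, and IL-27 binds its alpha chain Il27ra together with gp130. The IL-18 receptor pairs a binding chain (Il18r1) with an accessory chain (Il18rap), and Ifngr1 is the ligand-binding chain for interferon gamma. iNKT cells need IL-15 for survival, and IL-12 with IL-18 can make them release interferon gamma.

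Interferon gamma receptor transcript was the 1 member called different between the tissues: Ifngr1 was 4.42-fold higher in skin iNKT cells than in spleen iNKT cells. The shared chains Il2rg and Il2rb were abundant in all 8 libraries and did not pass the test. The other 7 members did not pass either. Of these, Il7r and Il27ra varied widely between skin libraries, and the remaining 5 had no count in at least 1 library.

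Levels are given in CPM, deposited expected counts scaled to a common library size, as mean ± SD with n = 4 libraries per tissue. Log2 fold changes set skin over spleen and come from edgeR's quasi-likelihood test, with Benjamini-Hochberg adjustment over all 6920 genes tested and a threshold of 0.05. All 10 members passed the filter on low counts. Of the members, 1 was called higher and 0 lower, while 5.43% of all genes tested were called, 1.85% higher and 3.58% lower. At an unadjusted p under 0.05, 1 member was higher and 0 were lower, while 5.1% of all genes tested were higher and 7.33% lower. DESeq2 and limma-voom also called 0 members lower, where they called 1380 of 8886 and 707 of 6920 genes in either direction. The median log2 fold change was -0.12 over the members and -0.29 over all genes tested.

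Total expected counts were 7221500 to 9791970 in skin libraries and 7191130 to 9361240 in spleen libraries. Skin libraries held a count for fewer genes, 5643 ± 393 genes in the skin libraries and 8024 ± 1692 in the spleen libraries (mean ± SD; exact permutation test, two-sided, p = 0.0286, the lowest possible with this many libraries). All 10 T and iNKT cell markers examined had counts in both tissues, with sums of 4141 to 4846 CPM in skin and 4215 to 6474 CPM in spleen. Of the 10, 1 was called higher in skin and 1 lower, beside 1.85% and 3.58% of all genes tested. Cd44 was higher (mean 837 CPM in skin and 211 in spleen, edgeR adjusted p = 0.00808). Cd3d was lower (mean 470 CPM in skin and 1112 in spleen, edgeR adjusted p = 0.025). Keratinocyte markers were present in skin, where 8 of 10 had a count and the sum was 273 to 1032 CPM, against 0 to 29.5 CPM in spleen. Erythroid markers summed to 0 to 2.12 CPM in skin and 111 to 274 CPM in spleen, and B cell markers to 0 to 76.1 CPM in skin and 48.9 to 235 CPM in spleen. Regulatory and CD8 T cell markers summed to 0.227 to 122 CPM in skin and 2.28 to 64.0 CPM in spleen. NK and innate lymphoid cell markers summed to 0 to 111 CPM in skin and 0 to 45.9 CPM in spleen, with Ncr1 and Eomes at 0 in all libraries. None of 6 mast cell markers had a count. Of 7 macrophage and monocyte markers, 2 had a count in skin and 3 in spleen, with sums of 0 to 52.2 CPM in skin and 0 to 48.5 CPM in spleen, and Csf1r, Emr1 and Fcgr1 were at 0 in all 8 libraries. Of 7 dendritic cell markers, 4 had a count in skin and 3 in spleen, with sums of 68.9 to 347 CPM in skin and 21.7 to 382 CPM in spleen, and Cd207, Flt3 and Zbtb46 were at 0. Bulk samples cannot tell fewer cells of a type from less RNA per cell.

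To show the sequences behind the members whose skin and spleen values did not overlap, the 250 bases before the transcription start of Ifngr1 and Il2rg are given from RefSeq, build GRCm38.p6, 5′ to 3′ on the gene's strand. The Ifngr1 segment lies at chr10:19591699-19591948 on the plus strand and the Il2rg segment at chrX:101268256-101268505 on the minus strand. The deposited counts were made on mm9, so these coordinates do not apply to them. Capitals mark GC boxes.
Ifngr1: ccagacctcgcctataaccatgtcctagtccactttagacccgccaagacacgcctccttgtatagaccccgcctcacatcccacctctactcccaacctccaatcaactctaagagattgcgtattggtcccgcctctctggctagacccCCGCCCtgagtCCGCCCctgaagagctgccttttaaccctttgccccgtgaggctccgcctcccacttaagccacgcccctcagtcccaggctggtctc
Il2rg: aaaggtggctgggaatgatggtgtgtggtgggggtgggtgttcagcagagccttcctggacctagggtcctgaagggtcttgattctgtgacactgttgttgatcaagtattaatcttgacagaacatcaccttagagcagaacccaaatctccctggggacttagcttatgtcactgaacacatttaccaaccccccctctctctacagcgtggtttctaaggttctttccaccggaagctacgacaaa

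Both strands were searched for the GC box GGGCGG, the GAS element TTCNNNGAA (a STAT site), the TATA box TATAAA and the AP-1 site TGANTCA. The Ifngr1 segment held 2 GC boxes and none of the other motifs, and the Il2rg segment held none of the 4. The GC content was 59.2% for Ifngr1 and 49.2% for Il2rg. Promoters of 7 of the 10 members were in the table. A member was counted if any segment of the gene held the motif, while the shares over all promoters are per segment. Among these 7, Ifngr1 was the only one with a GC box, while 32.7% of all 32851 promoter segments of this length held one. A GAS element was present before Il7r, Il12rb2 and Il18r1, and in 7.02% of all segments. The TATA box and the AP-1 site were before 0 of the 7 members, and in 12.4% and 6.75% of all segments. A match describes the letters only and is not evidence of binding.

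Ifngr1, which binds interferon gamma and carries the kinase JAK1, stood at 2894, 2455, 1687 and 2000 CPM in skin replicates 1 to 4, against 577, 340, 656 and 471 CPM in spleen replicates 1 to 4. Every skin library was above every spleen library. The means were 2259 ± 528 CPM in the skin libraries and 511 ± 137 in the spleen libraries. The log2 fold change was 2.14 ± 0.26 (SE; 95% interval 1.56 to 2.73; edgeR adjusted p = 0.00426). By p-value Ifngr1 ranked 17th among the genes higher in skin. In deposited counts the skin libraries held 14166 to 22311 reads for this gene and the spleen libraries 2987 to 5926. The counting error of reads is thus small beside the spread between libraries. Without molecular identifiers, read counts do not give the sampling error of the RNA molecules.

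The call of Ifngr1 did not rest on 1 library. With each library left out in turn the log2 fold change was 1.97 to 2.29 and the adjusted p 0.0085 to 0.0204. Keratinocyte markers moved with tissue in the same direction, and their part in the Ifngr1 difference was not tested. The keratinocyte sum was 892, 334, 1032 and 273 CPM in skin replicates 1 to 4, beside Ifngr1 at 2894, 2455, 1687 and 2000 CPM. The sum was 29.5, 0, 6.13 and 9.81 CPM in spleen replicates 1 to 4. Among the skin libraries, replicate 1 had the highest Ifngr1 and the second-largest sum, and replicate 3 the lowest Ifngr1 and the largest sum.

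**Figure D1:**
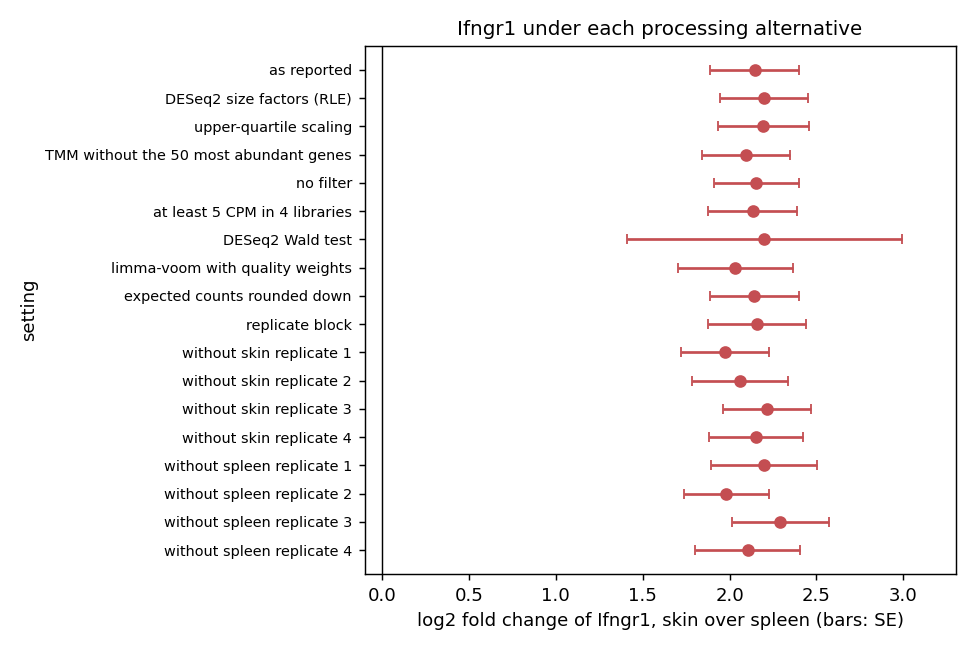
Log2 fold change of Ifngr1, skin over spleen (horizontal axis), for the fit as reported and each of 17 alternatives (vertical axis); points are estimates and bars are SE. All estimates lie between 1.97 and 2.29.

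The partner chain of the interferon gamma receptor, Ifngr2, had 98.9 and 108 CPM in skin replicates 2 and 3 and no count in skin replicates 1 and 4 or in any spleen library. It did not pass the filter and was not tested. Downstream of the receptor, Jak1 stood at 1021 ± 481 CPM in the skin libraries and 871 ± 167 in the spleen libraries (log2 fold change 0.23 ± 0.36, SE; edgeR adjusted p = 0.998). Jak2, the kinase carried by IFNGR2, stood at 124 ± 52.6 CPM in the skin libraries and 400 ± 118 in the spleen libraries. Its values did not overlap between the tissues, and it did not pass the test (log2 fold change -1.68 ± 0.44, SE; edgeR adjusted p = 0.0609). Irf1, an interferon-induced transcription factor, stood at 396 ± 174 CPM in the skin libraries and 906 ± 147 in the spleen libraries (edgeR adjusted p = 0.0694). Igtp, an interferon-induced GTPase, stood at 575 ± 277 CPM in the skin libraries and 748 ± 237 in the spleen libraries.

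Il2rg, the common gamma chain, stood at 1379, 2439, 2636 and 2128 CPM in skin replicates 1 to 4, against 3114, 2705, 2645 and 2694 CPM in spleen replicates 1 to 4. The highest skin value lay just under the lowest spleen value, so the tissues did not overlap. The means were 2145 ± 552 CPM in the skin libraries and 2789 ± 218 in the spleen libraries. The log2 fold change was -0.38 ± 0.20 (SE; 95% interval -0.82 to 0.07), and it did not pass the test (edgeR adjusted p = 0.557). Ifngr1 and Il2rg were the 2 of 10 members with no overlap between the tissues, a share to read against 19.5% of all genes tested (6.11% with skin higher and 13.4% with skin lower).

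Il2rb, the beta chain of the IL-2 and IL-15 receptors, was close to level between the tissues. It stood at 615, 1109, 895 and 1182 CPM in skin replicates 1 to 4, against 768, 934, 945 and 823 CPM in spleen replicates 1 to 4. The spleen values lay within the range of the skin values. The fitted difference was 0.13 ± 0.23 on the log2 scale (SE; 95% interval -0.38 to 0.64; edgeR adjusted p = 0.998). Of the members, Il2rg alone had a narrower interval.

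Il2ra, which encodes CD25, was low in both tissues. It stood at 35.6, 51.1, 46.3 and 0 CPM in skin replicates 1 to 4, against 7.21, 0, 33.2 and 3.12 CPM in spleen replicates 1 to 4. The upper 3 skin values exceeded all spleen values and the fourth skin library had no count. The log2 fold change of 1.61 had a 95% interval of -3.57 to 6.79, so a difference was not detectable at this spread (edgeR adjusted p = 0.998). Without spleen replicate 3 it was 3.27 and was not called. The regulatory T cell factor Foxp3, whose cells carry CD25, was at 9.5 CPM in skin replicate 1 and 1.3 CPM in spleen replicate 4 and at 0 in the other 6 libraries.

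Il7r, the alpha chain of the IL-7 receptor, stood at 630, 30.8, 106 and 280 CPM in skin replicates 1 to 4, against 822, 546, 545 and 603 CPM in spleen replicates 1 to 4. The level in skin replicate 1 fell within the spleen range and the other 3 skin libraries lay below it. Across the skin libraries the values spanned 20.4-fold, and across the spleen libraries 1.51-fold. The log2 fold change was -1.26 ± 0.75 (SE; 95% interval -2.97 to 0.44; edgeR adjusted p = 0.69). Without skin replicate 1 it was -2.21 (edgeR adjusted p = 0.148), still not called.

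**Figure D2:**
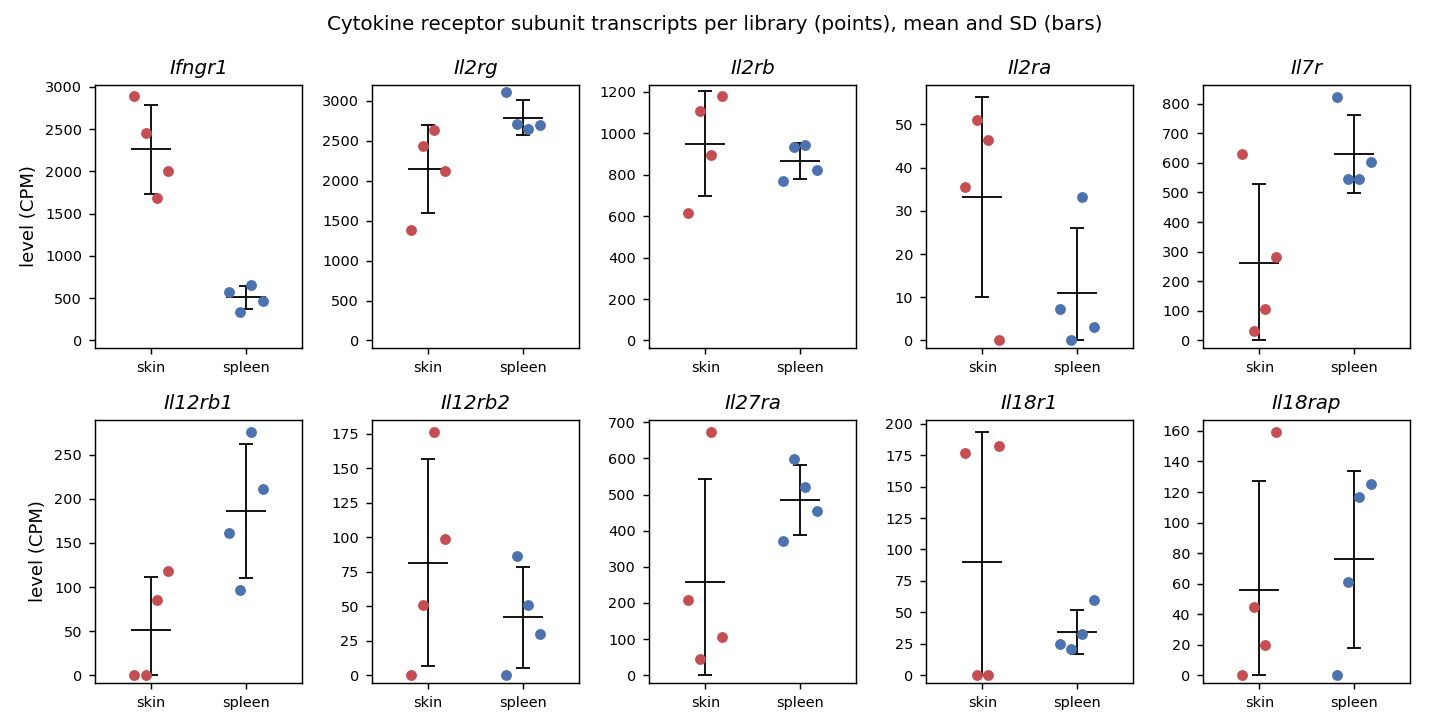
Level of each of the 10 receptor subunit transcripts (vertical axes, CPM, a scale of its own in each panel) in skin (left, red) and spleen (right, blue) iNKT libraries; each point is 1 library, and bars give the mean and SD, cut at 0. Ifngr1 points of skin all lie above those of spleen, between 1687 and 2894 against 340 to 656 CPM.

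Of the IL-12 receptor chains, Il12rb1, which IL-23 also uses, had no count in skin replicates 1 and 2 and 85.5 and 118 CPM in skin replicates 3 and 4. It stood at 162, 97.1, 276 and 211 CPM in spleen replicates 1 to 4. The tissues overlapped through skin replicate 4 and spleen replicate 2. Its log2 fold change, -1.87 ± 2.0 (SE), did not pass (edgeR adjusted p = 0.998). Il12rb2, the chain that recruits STAT4, stood at 0, 50.5, 176 and 98.4 CPM in skin replicates 1 to 4, against 0, 86.4, 50.9 and 30.0 CPM in spleen replicates 1 to 4. It had a count in 3 libraries of each tissue, and the ranges overlapped (log2 fold change 0.96 ± 2.22, SE; edgeR adjusted p = 0.998). Leaving out 1 library gave -2.73 to -1.48 for Il12rb1, lowest without skin replicate 4, and 0.22 to 1.57 for Il12rb2, lowest without skin replicate 3, with neither called. In skin replicate 1 neither chain had a count. Il23r, the IL-23 partner of Il12rb1, had 48.4 CPM in skin replicate 3 and no count elsewhere.

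Il27ra, the alpha chain of the IL-27 receptor, stood at 209, 45.01, 673 and 105 CPM in skin replicates 1 to 4, against 370, 598, 521 and 454 CPM in spleen replicates 1 to 4. Skin replicate 3 lay above every spleen library and the other 3 skin libraries lay below every one. Skin over spleen, its log2 fold change was -0.91 ± 0.72 (SE), not called (edgeR adjusted p = 0.896). Without skin replicate 3 it was -2.07 (edgeR adjusted p = 0.0864), still not called. Il6st, which encodes its partner gp130, had 2.97 CPM in spleen replicate 4 and no count in the other 7 libraries.

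Of the IL-18 receptor chains, Il18r1 stood at 177, 0, 0 and 182 CPM in skin replicates 1 to 4, against 24.7, 21.1, 33.1 and 59.6 CPM in spleen replicates 1 to 4. The skin libraries fell into 2 above every spleen library and 2 with no count. Il18rap stood at 0, 44.9, 19.98 and 159 CPM in skin replicates 1 to 4, against 0, 61.4, 117 and 125 CPM in spleen replicates 1 to 4. The ranges of Il18rap overlapped. The log2 fold changes were 1.37 ± 2.29 for Il18r1 and -0.44 ± 2.22 for Il18rap (SE; edgeR adjusted p = 0.998 for both). Leaving out 1 library gave 0.71 to 1.77 for Il18r1, lowest without skin replicate 4, and -1.84 to -0.045 for Il18rap, lowest without skin replicate 4 and nearest 0 without skin replicate 1. None of these fits called either chain. Skin replicate 4 was the only skin library with counts of both chains, and spleen replicates 2, 3 and 4 held both.

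**Figure D3:**
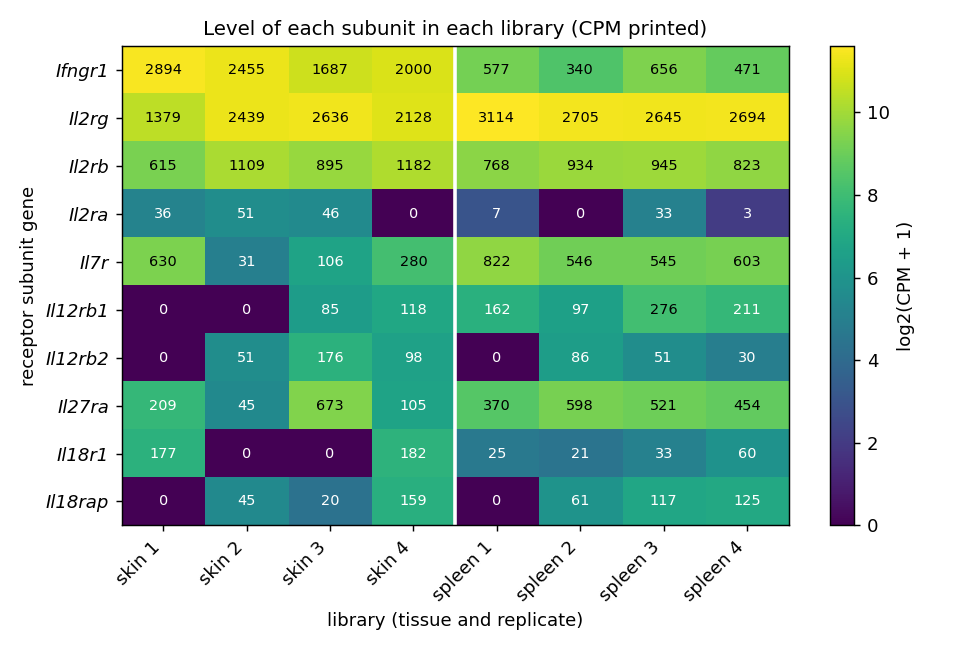
Level of each receptor subunit (rows) in each library (columns, skin replicates 1 to 4 left of the white line and spleen replicates 1 to 4 right of it), with the CPM printed and the colour giving log2(CPM + 1). The values of 0 fall in Il2ra, Il12rb1, Il12rb2, Il18r1 and Il18rap.

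Values of 0 were 7 of 40 member values in skin and 3 of 40 in spleen. Genes of like level were also often at 0, and a count of 0 allows up to 3 counts, or 0.292 to 0.454 CPM, by counting error alone. Here like level means a mean in the other 3 libraries of the tissue within 0.8 to 1.25 times that of the member. Genes of the level of Il12rb1 stood at 0 in 34.0% of skin values, and genes of the level of Il18r1 in 17.7%. For Il12rb2 this share was 20.8% in skin and 16.6% in spleen, and for Il18rap it was 32.3% in skin and 8.63% in spleen. For Il2ra it was 43.2% in skin and 35.9% in spleen. A member at 0 in a skin library was thus in the company of many other genes of its level. These shares pool the 4 libraries of a tissue, and the spleen libraries were uneven. Of all genes tested, 22.4%, 17.4%, 4.84% and 0.78% were at 0 in spleen replicates 1 to 4. The 3 member values of 0 in spleen fell in replicates 1 and 2.

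The spread of Il7r and Il27ra between skin libraries was wider than that of most genes of their level. The coefficient of variation was 102% for Il7r in skin, where the median of 410 genes with a mean level within 0.8 to 1.25 times its own was 51.1% and 2.68% of them varied more. For Il27ra it was 110% in skin, and 1.44% of 417 such genes varied more. In spleen the coefficient of variation was 20.9% for Il7r and 19.9% for Il27ra, near the medians of 21.7% and 23.2% for their level. Ifngr1 varied by 23.4% in skin and 26.8% in spleen. Il2rg varied by 25.7% in skin and 7.81% in spleen, and Il2rb by 26.7% in skin and 9.93% in spleen.

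**Figure D4:**
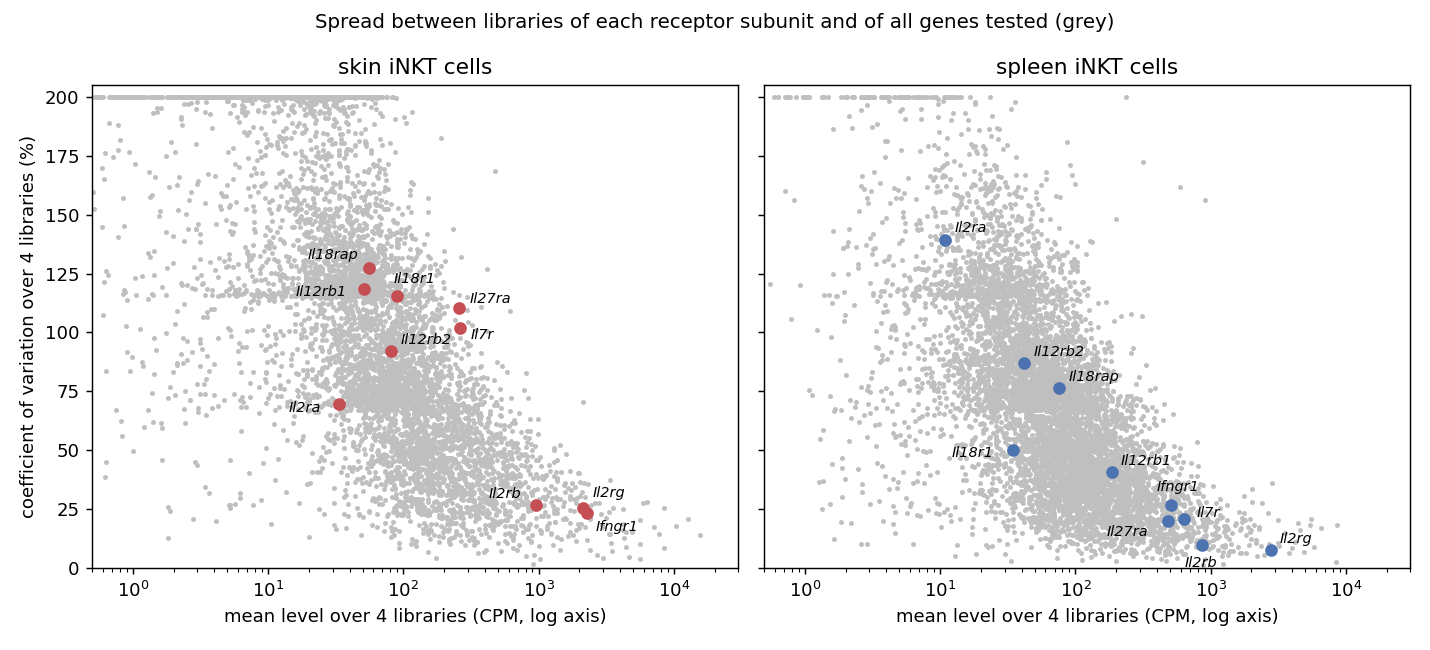
Coefficient of variation over the 4 libraries of a tissue (vertical axes, %) against the mean level (horizontal axes, CPM, log scale) in skin (left, red) and spleen (right, blue); large points are the receptor subunits and grey points all genes tested. In skin, Il7r (102%) and Il27ra (110%) lie at the upper edge of the cloud, and in spleen they lie inside it (20.9% and 19.9%).

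Levels of different genes were compared per length, as CPM per kilobase of exon in GENCODE M21, an annotation of another build than the authors'. Il2rg was the most abundant member in both tissues, at 1285 ± 330 CPM per kilobase in skin and 1670 ± 130 in spleen. Ifngr1 came second in both, at 1070 ± 250 CPM per kilobase in skin and 242 ± 64.9 in spleen. Its range in skin, 799 to 1370, overlapped that of Il2rg in skin, 826 to 1578. In spleen the range of Ifngr1, 161 to 311, overlapped those of Il2rb (179 to 221), Il27ra (139 to 224) and Il7r (154 to 232) and lay far under that of Il2rg. Among tested genes with a length, Ifngr1 ranked 55th in skin and 317th in spleen by mean level. The share of these genes below Il2rb was 94.0% in skin and 93.8% in spleen, and for Il7r 81.8% in skin and 92.8% in spleen. Il2ra was the lowest member in both tissues, at 6.38 ± 4.43 CPM per kilobase in skin and 2.09 ± 2.91 in spleen.

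The balance of subunits within a receptor was compared as a log2 ratio of CPM + 1 in each library, over 5 pairs. Il2rb to Il2rg stood at -1.16, -1.14, -1.56 and -0.85 in skin replicates 1 to 4, against -2.02, -1.53, -1.48 and -1.71 in spleen replicates 1 to 4. The mean difference, skin minus spleen, was 0.51 (two-sided exact permutation p = 0.0857; adjusted p = 0.214 over the 5 pairs). The ratio was higher in 3 of the 4 skin libraries than in any spleen library. Il12rb2 to Il12rb1 averaged 1.62 ± 2.77 in the skin libraries and -3.18 ± 3.01 in the spleen libraries (SD; exact permutation p = 0.0571, adjusted p = 0.214). In skin replicate 1 both chains were at 0, so its ratio comes from the added constant alone. The most extreme ratios also rest on that constant. They were 5.69 in skin replicate 2, where Il12rb1 was at 0, and -7.35 in spleen replicate 1, where Il12rb2 was at 0. The mean difference was 4.79, and 3.60 to 5.29 with other constants or another scaling. The ratios of Il2ra to Il2rb, Il7r to Il2rg and Il18rap to Il18r1 had adjusted exact permutation p-values of 0.5, 0.5 and 0.857. None of the 5 pairs passed.

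**Figure D5:**
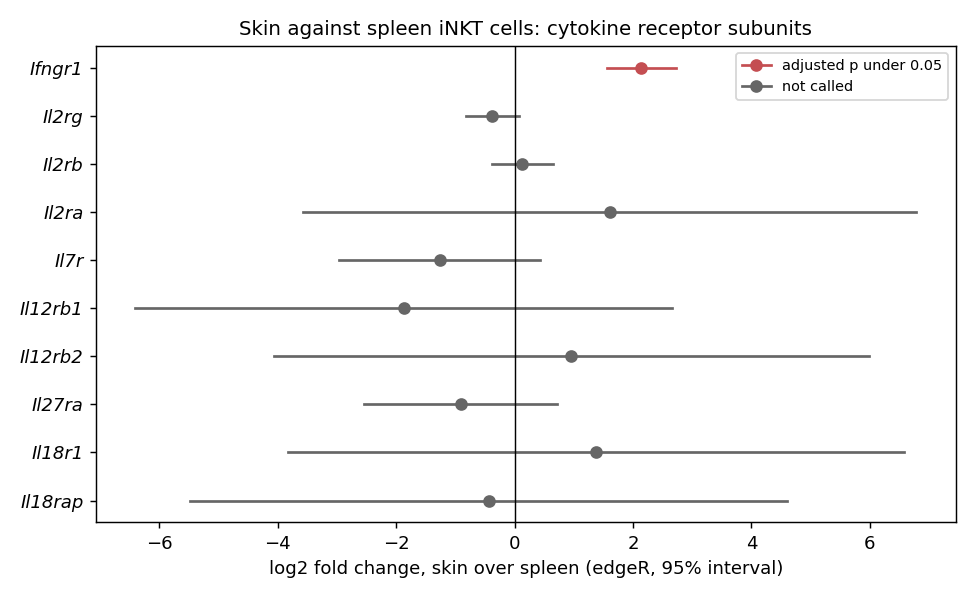
Log2 fold change of each receptor subunit, skin over spleen (horizontal axis), with its 95% interval from edgeR; red marks an adjusted p under 0.05 and grey the members not called. Ifngr1 has an interval of 1.56 to 2.73, and the intervals of the other 9 include 0.

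Among 30 other cytokine receptor subunits, 29 had a count in some library and 9 passed the filter. Of the 9, edgeR called 1 higher in skin and 0 lower, beside 1.85% and 3.58% of all genes tested. At an unadjusted p under 0.05 the count lower was 0, beside 7.33% of all genes tested. DESeq2 called 1 higher and 2 lower, and limma-voom 1 higher and 1 lower. Over all genes tested, DESeq2 called 1380 of 8886 and limma-voom 707 of 6920, of which 14.6% and 29.3% were higher. The median log2 fold change of the 9 was -0.17, against -0.29 over all genes tested. The 1 called by edgeR was Il21r, the IL-21 receptor chain that pairs with the common gamma chain. It stood at 232, 851, 728 and 539 CPM in skin replicates 1 to 4, against 93.1, 142, 129 and 140 CPM in spleen replicates 1 to 4. Every skin library was above every spleen library (log2 fold change 2.22 ± 0.42, SE; edgeR adjusted p = 0.0352). The call was lost with any 1 library left out except skin replicate 1. Over these 8 fits the adjusted p was 0.0083 to 0.124.

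Il4ra, the IL-4 receptor chain that also pairs with the common gamma chain, stood at 687 ± 365 CPM in the skin libraries and 116 ± 79.6 in the spleen libraries. In spleen it was at 166, 0, 126 and 170 CPM in replicates 1 to 4, against 351 to 1072 CPM in skin. The values did not overlap, and Il4ra did not pass the test (edgeR adjusted p = 0.6). Il17ra, the shared IL-17 receptor chain, stood at 222 ± 160 CPM in the skin libraries and 101 ± 70.95 in the spleen libraries, and the interferon alpha receptor chain Ifnar2 at 123 ± 44.9 CPM in the skin libraries and 155 ± 60.0 in the spleen libraries, neither called. Il15ra, which presents IL-15 to the beta and gamma chains, had no count in skin and 62.4, 0, 18.1 and 18.9 CPM in spleen replicates 1 to 4.

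Of 14 ligand genes, 10 had no count in any library, among them Il2, Il7, Il15, Il12a, Il12b, Il18 and Il27. Of the 2 tested, 0 were called higher and 0 lower, at an unadjusted p under 0.05 as well. The median log2 fold change of these 2 genes was -1.42, against -0.29 over all genes tested. DESeq2 called 0 higher and 1 lower, and limma-voom 0 in either direction. Over all genes tested, DESeq2 called 1380 of 8886 and limma-voom 707 of 6920. Ifng, the ligand of Ifngr1, stood at 218, 105, 116 and 54.2 CPM in skin replicates 1 to 4, against 42.3, 129, 137 and 285 CPM in spleen replicates 1 to 4. The ranges overlapped (edgeR adjusted p = 0.998). Il4 stood at 7.26 ± 9.58 CPM in the skin libraries and 43.4 ± 27.8 in the spleen libraries, and Il21 had 95.01 CPM in skin replicate 3 and no count elsewhere.

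All 14 kinases, STAT factors and adaptors on the list were tested, and edgeR, DESeq2 and limma-voom called 0 higher and 0 lower. Over all genes tested, edgeR called 5.43%, DESeq2 1380 of 8886 and limma-voom 707 of 6920, in either direction. At an unadjusted p under 0.05, 1 was higher and 2 were lower, against 5.1% higher and 7.33% lower of all genes tested. The median log2 fold change was -0.79, against -0.29 over all genes tested. Stat3 stood at 604 ± 231 CPM in the skin libraries and 193 ± 125 in the spleen libraries (edgeR adjusted p = 0.393). Of 18 genes induced through STAT factors downstream of these receptors, 16 were tested. By edgeR 0 were called higher and 0 lower. DESeq2 and limma-voom each called 1 higher and 1 lower, to read against the same shares over all genes tested. At an unadjusted p under 0.05, 2 of the 16 (Cish and Gzmb) were higher and 1 (Irf1) was lower, to read against the same 5.1% and 7.33% of all genes tested. The median log2 fold change of the 16 was 0.41, against -0.29 over all genes tested. Tbx21, which encodes T-bet, stood at 350 ± 237 CPM in the skin libraries and 247 ± 171 in the spleen libraries and did not pass the test. It had no count in spleen replicate 2.

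The genes whose profile over the 8 libraries was most like that of a member were sought by Pearson's r of log2(CPM + 1) among 5658 candidates, as a description over libraries that share 2 tissues and their depth. For Ifngr1 they were Eif4e3 (r = 0.99) and Atp6v0c-ps2 (r = 0.98), for Il2rg Def6 (r = 0.98) and Ubtf (r = 0.96), and for Il2rb Ass1 (r = 0.93) and Bcl7c (r = 0.93). For Il7r they were Rpl31 (r = 0.98) and Atxn7l3b (r = 0.98), and for Il27ra Bcl2l13 (r = 0.98) and Cnot8 (r = 0.97). The best r of the other 5 members was 0.97 to 0.99. With 5658 candidates and 8 libraries a high best r is likely for any profile, and shared regulation was not tested.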

How the data were processed

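Expected counts per gene, estimated by RSEM, were deposited by the authors without scaling for library size, per the submitters' processing notes, which also name FastQC, DESeq2 1.16.1 and mm9. For the aligner and annotation release, the sources used here name nothing. Per the labels' protocols, cDNA was made with SMART-Seq v4, which does not mark strand, and read in pairs on a NextSeq 500. Columns were mapped to libraries by the names in the labels. No per-sample column went unused.

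After rounding these estimates to integers, and with edgeR 4.0.16 in R 4.3.3, filterByExpr left 6920 genes, scaled by TMM (common dispersion 2.94), and a robust quasi-likelihood fit with tissue as its only term was adjusted by Benjamini-Hochberg. CPM use the TMM-scaled sizes. The fit was tried on simulated counts of lower dispersion than that of these data, which does not test it at their spread. No 2 libraries of the same tissue agreed within sampling noise. Without molecular identifiers, the floor of 3 counts reflects counting error alone.

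The members and lists were chosen with earlier results of these data known. Named were the 10 members, each called list gene, up to 3 uncalled genes of each list by mean CPM, and 2 genes most like each member. Ifngr2, Jak2, Il23r, Il6st, Il15ra, Foxp3, Cish and Gzmb were named after their values were seen. Alternatives were DESeq2 1.42.0, limma-voom (limma 3.58.1), other scalings, filters and rounding, a replicate block, other added constants for the ratios and each library left out. Exon lengths matched 90.9% of tested genes by symbol. T cell receptor genes were not analysed here, and some genes of the lists are not reported here.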

Additional observations from a re-analysis of the deposited data

Results flagged for a closer look

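In spleen, 1 library stood apart for Il2rg. Spleen replicate 1 was at 3114 CPM while the other 3 were between 2645 and 2705 CPM, a gap of 0.871 of the whole range of the 4 libraries, above Dixon's critical value for a group of 4. The members gave 20 groups of 4 libraries, of which 1 stood out, and chance gives about 1 in 20.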

How the results depend on the processing

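Ifngr1 was called higher and no member lower in all 17 alternatives, with a log2 fold change of 1.97 to 2.29 and an adjusted p of 0.000616 to 0.0383. The number of genes called over the whole table was less stable. Against 128 higher and 248 lower as reported, DESeq2 called 201 higher and 1179 lower, limma-voom 207 and 500, and the fit without a filter 48 lower. Leaving out 1 library gave 47 to 102 higher and 17 to 111 lower. Among the other receptor subunits, leaving out 1 library gave 0 to 1 higher and 0 to 1 lower. DESeq2 gave 1 higher, a gene other than Il21r, and 2 lower, and limma-voom gave 1 higher and 1 lower. DESeq2 called 1 ligand lower. The response genes gave 1 higher and 1 lower with DESeq2, 1 higher and 1 lower with limma-voom, and 0 to 1 lower without 1 library. Il21r also lost its call with DESeq2 (adjusted p = 0.0526), and Irf1 gained one with limma-voom (adjusted p = 0.039) and without skin replicate 2 (adjusted p = 0.0328). The cause was not tested. Signs turned only for values that were not called. With limma-voom the log2 fold change was -0.88 for Il12rb2, -3.60 for Il18r1 and -0.059 for Jak1. The median over all genes tested was then -2.06, against -0.29 as reported. Whether this shift accounts for the turned signs was not tested. Without 1 library the log2 fold change was -0.029 to 0.26 for Il2rb, -0.72 to 0.26 for Ifng, -0.044 to 0.45 for Jak1 and -0.13 to 0.78 for Tbx21. The difference in the ratio of Il18rap to Il18r1, 0.64 as reported, was -0.30 with a constant of 5 CPM and -0.99 to 3.31 without 1 library.

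The same-numbered libraries did not deviate together (correlations of -0.000311 to 0.0138 across genes, and 2 of 8 libraries closest to their own number). With many values at 0, this check cannot decide whether same-numbered libraries share an animal, and the labels do not say. The replicate block gave 36 genes higher and 14 lower, 0 of the other receptor subunits higher, a log2 fold change of -3.51 for Il18r1 and 2.16 for Ifngr1 (adjusted p = 0.0376). With the block the median over all genes tested was -0.99, against -0.29 as reported. Values of 0 limit what can be said of the 5 members that lacked a count in some library.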
